A study of Mus musculus with 13 samples.

Results

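The blood-brain barrier and tight junction genes described here were 10 genes chosen by name, Slc2a1, Mfsd2a, Abcb1a, Abcc4, Cldn5, Ocln, Tjp1, Cgn, Cdh5 and Flt1. All 10 were found among the 34745 genes of the deposited table, and all 10 passed the filter on low counts, which kept 17467 genes. They were measured by RNA sequencing of whole olfactory bulb from wild-type C57BL/6 mice aged 7 to 8 weeks, with 1 library per sample. Fine airborne particles (PM2.5) were labelled as given at 3 mg/kg/3 day to mice of a 1st set (n = 3) and at 10 mg/kg/3 day to mice of a 2nd set (n = 3), and each set had its own untreated controls (n = 4 in the 1st set and n = 3 in the 2nd). No label gives the route, the meaning of "/3 day" or whether libraries came from separate animals, so p-values measure only the spread between these samples. The question was whether each exposed group differed from the controls of its own set.

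The blood-brain barrier is formed by endothelial cells of brain vessels. Claudins and occludin seal the cleft between neighbouring cells and are tied to the actin skeleton by cytoplasmic scaffold proteins, while VE-cadherin holds the adherens junctions below them. The same cells carry nutrient transporters that feed the brain and efflux pumps that return foreign compounds to the blood, and they respond to VEGF through its receptors. Several of these genes are not confined to endothelium: astrocytes also make the glucose transporter, and many cell types make the scaffold protein ZO-1. In bulk tissue, fewer cells of a type and less RNA per cell cannot be told apart.

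Libraries held 13032834 to 14665696 counts in the 1st set and 15387870 to 26989267 in the 2nd, and the members held from 41 counts (Cgn) to 3623 counts (Tjp1) in a library. Bulb neuron markers summed to between 4112 and 5617 CPM, counts scaled to a TMM-adjusted library total, in every library. The sets differed in sex-linked transcripts although the series is described as male. Xist stood at 0.0992 to 0.555 CPM in the 6 libraries of the 2nd set and at 2245 to 2712 CPM in the 7 libraries of the 1st. The Y-linked genes Ddx3y, Uty, Kdm5d and Eif2s3y summed to 177 to 230 CPM in the 2nd set and 0 to 0.21 CPM in the 1st. By these transcripts the 1st set had a female pattern and the 2nd a male pattern. Between sets the dose, the set and these sex-linked levels therefore cannot be told apart. In the 2nd set, high-dose replicate 3 (25548559 counts) and control replicate 2 (26989267 counts) were the deepest libraries of their groups. Their deviations from the group means correlated at 0.455 across the genes tested, which are not independent replicates.

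At the high dose, 1 of the 10 members rose, the glucose transporter gene Slc2a1, and none fell. Over all genes tested 0.641% were called, 0.521% higher, with edgeR's quasi-likelihood test at a Benjamini-Hochberg adjusted p under 0.05. All 10 fitted log2 fold changes were above 0, as were 47.2% of all genes, and their median was 0.33 against -0.01 over all genes tested. In 5 members (Slc2a1, Mfsd2a, Abcc4, Cgn and Cdh5) every high-dose library lay above every control, which 6.08% of all genes did. No member was called at the low dose, and neither was any other gene (0%). At an unadjusted p under 0.05, 2 members were higher at the low dose, where 1.31% of genes were, and 5 at the high dose, where 5.75% of genes were.

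**Figure D1:**
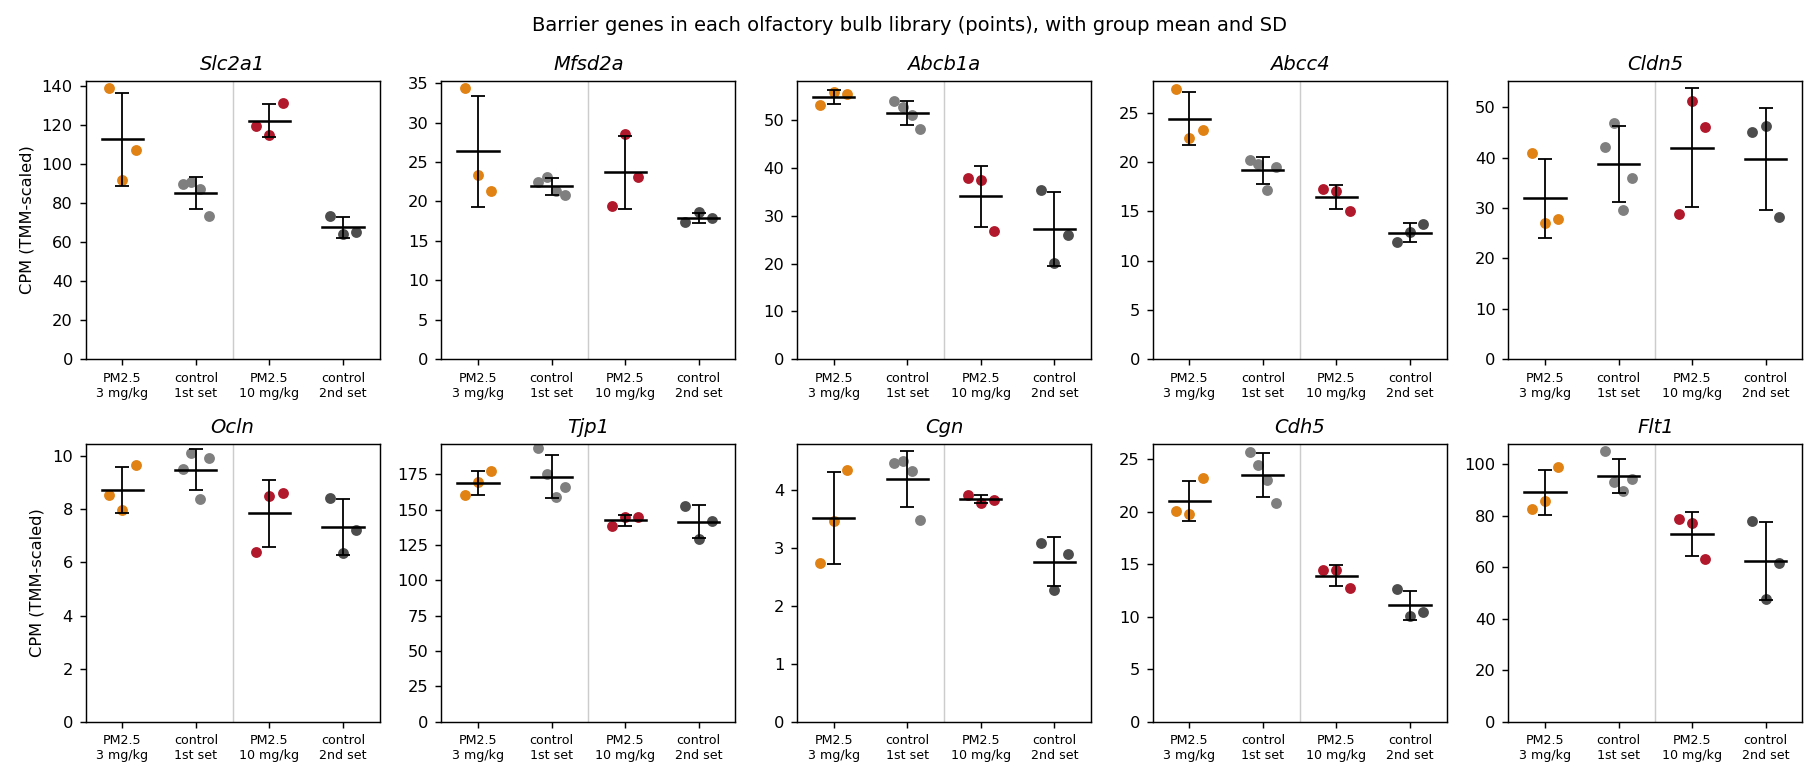
CPM of each barrier gene in every library (points), with the group mean (line) and SD (bars), for PM2.5 3 mg/kg and controls of the 1st set, and PM2.5 10 mg/kg and controls of the 2nd set; each vertical axis starts at 0. Slc2a1 stood at 115 to 131 CPM in the 3 libraries at 10 mg/kg, above all their controls. The groups of Abcb1a, Cldn5, Ocln, Tjp1 and Flt1 overlapped at both doses.

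Slc2a1 encodes GLUT1, the main carrier of glucose from blood into brain (ENSMUSG00000028645, mm10 chromosome 4, 119108711 to 119137983, plus strand). It stood at 120, 115 and 131 CPM in the high-dose libraries, against 73.5, 63.9 and 65.0 CPM in the controls of the 2nd set. The groups were far apart, with a mean of 122 ± 8.46 CPM at the high dose and 67.5 ± 5.27 CPM in controls (SD, n = 3 each). The log2 fold change was 0.86 (SE 0.13, adjusted p = 0.00845, edgeR), a rise of 80.9%. Among the settings under which the call was lost were a fit without control replicate 3 of the 2nd set (0.83, adjusted p = 0.054), one without both deepest libraries of the 2nd set (0.75, adjusted p = 0.0686, chosen after the data were seen), and a fit of each set alone (0.86, adjusted p = 0.0635).

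After 3 mg/kg Slc2a1 stood at 139, 91.9 and 107 CPM, against 89.9, 90.6, 87.3 and 73.1 CPM in the controls of the 1st set. All 3 exposed libraries were above all 4 controls, the lowest of them by little more than 1 CPM. The log2 fold change of 0.40 (SE 0.12, unadjusted p = 0.0052, adjusted p = 1, edgeR) did not pass, and it was 0.22 without exposed replicate 1. Across the mean of both responses Slc2a1 was the only member called (log2 0.63, SE 0.09, adjusted p = 0.00474, edgeR); 0.424% of genes were called higher there. The difference between the responses, 0.45 (SE 0.18, adjusted p = 0.728, edgeR), did not pass. Antisense genes Gm12867 and Gm12868 overlap Slc2a1 and held 0 counts in all 13 libraries; Abcb1a, Abcc4, Tjp1 and Cdh5 also overlap annotated genes on the opposite strand, and no source names the strand setting of the counting.

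The 3 genes whose pattern was most like that of Slc2a1 were sought among 13759 genes with a mean of at least 1 CPM. Likeness was the root mean square difference in log2 CPM, each gene centred on the controls of its set, over the 13 libraries. They were Mertk (0.12), Ptpn6 (0.16) and Vcam1 (0.18). At the high dose their log2 fold changes were 0.90, 0.70 and 0.89 (adjusted p = 0.00845, 0.0979 and 0.00831, edgeR). At the low dose they were 0.34, 0.46 and 0.16, none of which passed. The choice used the same exposed libraries, so changes like those of Slc2a1 follow from it and are no separate support.

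Mfsd2a encodes the carrier that brings lysophospholipids with docosahexaenoic acid into brain and that restrains vesicle transport across endothelium (ENSMUSG00000028655, mm10 chromosome 4, 122946850 to 122961188, minus strand). It stood at 19.4, 28.6 and 23.2 CPM at the high dose, against 17.4, 18.6 and 17.8 CPM in controls. Every exposed library was above the controls, but the exposed ones differed among themselves more than the controls did, and the log2 fold change of 0.40 (SE 0.17, adjusted p = 0.429, edgeR) did not pass; it was 0.24 without high-dose replicate 2. Low-dose libraries stood at 34.4, 23.4 and 21.3 CPM, against 22.4, 23.1, 21.3 and 20.8 CPM in controls. Only replicate 1 was clearly above the controls: the log2 fold change was 0.27 (SE 0.16, adjusted p = 1, edgeR) and 0.03 without that library. The same low-dose library was also the highest of its group for Slc2a1, Abcc4 and Cldn5, and the lowest for Abcb1a, Tjp1, Cgn and Flt1. Its leukocyte genes (44.9 CPM), red cell genes (117 CPM) and genes of meningeal fibroblasts (426 CPM) had the highest sums of its group. So had its genes of olfactory mucosa (126 CPM) and of cortex and striatum (875 CPM). Its endothelial (451 CPM), bulb neuron (4527 CPM) and choroid plexus and ependyma genes (11.4 CPM) had the lowest. The part of these cells in its values was not tested.

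The 250 bases before the RefSeq start (GRCm38.p6) are shown for Slc2a1, the gene that was called, for Abcc4 and Mfsd2a, the members with the next smallest p in the mean of both responses, and for Cldn5, the main barrier claudin, whose groups overlapped. Capitals mark ACGTG and GCGTG, the core letters of hypoxia response elements, and GGGNNNNNCC, a loose NF-kB letter pattern, on either strand; ACGTG also lies inside the E-box CACGTG, where it is counted on both strands.
Slc2a1 (chr4:119108495-119108744, plus strand): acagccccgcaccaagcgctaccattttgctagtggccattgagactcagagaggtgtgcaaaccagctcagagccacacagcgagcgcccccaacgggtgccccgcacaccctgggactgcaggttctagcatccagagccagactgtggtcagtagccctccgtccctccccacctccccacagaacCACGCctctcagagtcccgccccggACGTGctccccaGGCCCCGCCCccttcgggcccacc
Mfsd2a (chr4:122961189-122961438, minus strand): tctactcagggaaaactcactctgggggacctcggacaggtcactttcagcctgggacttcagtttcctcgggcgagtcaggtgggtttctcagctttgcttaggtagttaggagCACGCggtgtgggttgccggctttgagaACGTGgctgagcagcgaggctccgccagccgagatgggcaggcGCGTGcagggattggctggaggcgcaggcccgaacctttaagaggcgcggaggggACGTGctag
Abcc4 (chr14:118706220-118706469, minus strand): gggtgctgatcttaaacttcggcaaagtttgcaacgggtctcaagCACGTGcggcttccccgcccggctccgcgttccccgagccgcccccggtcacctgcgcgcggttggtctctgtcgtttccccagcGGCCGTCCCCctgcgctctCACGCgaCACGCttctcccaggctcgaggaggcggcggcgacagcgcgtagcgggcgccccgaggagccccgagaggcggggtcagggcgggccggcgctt
Cldn5 (chr16:18776597-18776846, plus strand): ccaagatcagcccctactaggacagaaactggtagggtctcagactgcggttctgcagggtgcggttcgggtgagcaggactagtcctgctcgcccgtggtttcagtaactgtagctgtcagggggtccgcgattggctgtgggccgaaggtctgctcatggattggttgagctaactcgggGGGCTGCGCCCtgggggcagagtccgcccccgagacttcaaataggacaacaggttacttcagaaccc
In this window ACGTG occurred 1 time in Slc2a1, 2 times in Mfsd2a and 2 times in Abcc4 (both from 1 CACGTG), and was not in the window of Cldn5, and 16.6% of 32851 RefSeq promoter windows of the same length held it. GCGTG occurred 1, 2 and 2 times in the same genes and not in Cldn5 (28.2% of windows). The NF-kB pattern was in Slc2a1, Abcc4 and Cldn5 (2 overlapping matches) and in 45.8% of all windows. The 4 windows had a GC content of 66.4%, 61.6%, 72.0% and 59.6% in the order printed, against a median of 52.4% over all windows. Also searched were GGGCGG (2 matches in Slc2a1, 3 in Abcc4, 1 in Cldn5; 32.7% of windows), CCAAT (1 in Mfsd2a, 2 in Cldn5; 33.8%), CCGGAA (12.03%), TGANTCA (6.75%) and a glucocorticoid response element (0.387%), of which the last 3 had no match in the 4 windows. A match of letters is a description and not a binding site. RefSeq lists a 2nd start for Abcc4, whose window (chr14:118676932-118677181, 47.6% GC) held neither hypoxia core, no match of GGGCGG and 1 match of the NF-kB pattern. RefSeq starts were found for 9 of the 10 members. Among those not printed, Cgn held ACGTG 2 times (from 1 CACGTG), and Flt1 and both starts of Ocln held GCGTG 1 time each. Abcb1a and Tjp1 held neither core, but the bases after their RefSeq starts were found in no GENCODE M21 transcript of the gene. The cores were thus not confined to members with a small p.

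Abcb1a encodes P-glycoprotein, the best known drug efflux pump of the barrier (ENSMUSG00000040584, mm10 chromosome 5, 8660077 to 8748575, plus strand). It stood at 38.0, 37.6 and 26.7 CPM at the high dose, against 35.4, 20.1 and 26.0 CPM in controls. The groups overlapped (log2 0.33, SE 0.17, adjusted p = 0.574, edgeR), and the log2 fold change was 0.13 without control replicate 2 and 0.58 without control replicate 1. The lowest library of each group was the deepest one. The level was even after 3 mg/kg, 53.2, 56.0 and 55.5 CPM, against 54.1, 52.7, 51.1 and 48.3 CPM in controls (log2 0.09, SE 0.16, adjusted p = 1, edgeR). The paralogue Abcb1b, with which reads could be shared, was far lower, at 2.57 CPM on average at the high dose and 1.92 CPM in controls.

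Abcc4 encodes MRP4, a pump for organic anions and cyclic nucleotides (ENSMUSG00000032849, mm10 chromosome 14, 118482692 to 118706219, minus strand). It stood at 17.3, 17.1 and 15.0 CPM at the high dose, against 11.8, 12.9 and 13.8 CPM in controls. After 3 mg/kg it stood at 27.5, 22.5 and 23.3 CPM, against 20.3, 19.8, 17.2 and 19.6 CPM in controls. It was thus the only member besides Slc2a1 whose exposed libraries lay above all controls at both doses; at the low dose 3.71% of all genes did so. The fitted changes were of like size, log2 0.36 at the high dose (SE 0.12, adjusted p = 0.267, edgeR) and 0.35 at the low dose (SE 0.11, adjusted p = 1, edgeR), and neither passed. The mean of both was 0.35 (SE 0.08, adjusted p = 0.0897, edgeR), and it passed with the DESeq2 Wald test.

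The 4 tight junction members showed no called change at either dose. Cldn5, which encodes claudin-5, the claudin that dominates brain endothelial junctions (ENSMUSG00000041378, mm10 chromosome 16, 18776847 to 18778260, plus strand), had the largest SE of the members at both doses. It stood at 28.7, 51.2 and 46.0 CPM at the high dose, against 45.0, 46.3 and 28.1 CPM in controls. One library of each group was low and the groups overlapped fully (log2 0.08, SE 0.25, adjusted p = 0.976, edgeR). After 3 mg/kg it stood at 40.9, 26.9 and 27.8 CPM, against 42.1, 46.9, 29.5 and 35.9 CPM in controls. These groups overlapped as well (log2 -0.28, SE 0.24, adjusted p = 1, edgeR), and without exposed replicate 1 the log2 fold change was -0.50.

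Ocln encodes the membrane protein occludin (ENSMUSG00000021638, mm10 chromosome 13, 100496507 to 100552718, minus strand). It stood at 6.40, 8.50 and 8.62 CPM at the high dose, against 8.42, 6.34 and 7.22 CPM in controls (log2 0.11, SE 0.17, adjusted p = 0.931, edgeR). Its low-dose libraries stood at 8.55, 7.98 and 9.69 CPM, against 9.52, 10.1, 8.38 and 9.92 CPM in controls (log2 -0.12, SE 0.16, adjusted p = 1, edgeR). Tjp1, which encodes the scaffold ZO-1 (ENSMUSG00000030516, mm10 chromosome 7, 65296165 to 65527781, minus strand), had the smallest SE of the members at both doses. It stood at 138, 145 and 145 CPM at the high dose, against 153, 129 and 142 CPM in controls (log2 0.01, SE 0.09, adjusted p = 0.993, edgeR). After 3 mg/kg Tjp1 stood at 161, 169 and 177 CPM, against 193, 175, 159 and 166 CPM in controls (log2 -0.04, SE 0.08, adjusted p = 1, edgeR). The groups of both genes overlapped at both doses. The sign of the high-dose estimates for Cldn5, Ocln and Tjp1 and of the low-dose estimate for Tjp1 turned when a single library was left out.

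Cgn, which encodes cingulin, a scaffold that links tight junctions to the cytoskeleton (ENSMUSG00000068876, mm10 chromosome 3, 94760069 to 94786492, minus strand), was the member of lowest count (41 to 96 per library). It stood at 3.92, 3.77 and 3.83 CPM at the high dose, against 3.09, 2.28 and 2.90 CPM in controls. The exposed libraries were close together and above all controls, but the log2 fold change of 0.49 (SE 0.21, adjusted p = 0.462, edgeR) did not pass. Its low-dose libraries stood at 2.74, 3.47 and 4.34 CPM, against 4.46, 4.50, 4.33 and 3.47 CPM in controls, and the groups overlapped (log2 -0.25, SE 0.20, adjusted p = 1, edgeR). The low-dose value was -0.10 without exposed replicate 1 and -0.44 without exposed replicate 3.

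Cdh5 encodes VE-cadherin, the endothelial adherens junction protein (ENSMUSG00000031871, mm10 chromosome 8, 104101625 to 104144502, plus strand). It stood at 14.5, 14.5 and 12.8 CPM at the high dose, against 12.7, 10.1 and 10.4 CPM in controls, so that the lowest exposed library was barely above the highest control (log2 0.33, SE 0.13, adjusted p = 0.367, edgeR). Its low-dose libraries stood at 20.1, 19.8 and 23.2 CPM, against 25.7, 24.5, 23.1 and 20.8 CPM in controls (log2 -0.16, SE 0.12, adjusted p = 1, edgeR). These groups overlapped.

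Flt1 encodes VEGF receptor 1, a high-affinity receptor that also acts as a trap for VEGF (ENSMUSG00000029648, mm10 chromosome 5, 147561604 to 147726011, minus strand). It stood at 78.7, 77.0 and 63.1 CPM at the high dose, against 77.9, 47.6 and 61.7 CPM in controls (log2 0.23, SE 0.15, adjusted p = 0.716, edgeR), with 0.05 when control replicate 2 was left out and 0.43 when control replicate 1 was. Its low-dose levels were 82.6, 85.5 and 98.9 CPM, against 105, 93.1, 89.7 and 94.3 CPM in controls (log2 -0.10, SE 0.14, adjusted p = 1, edgeR). The groups overlapped at both doses.

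**Figure D2:**
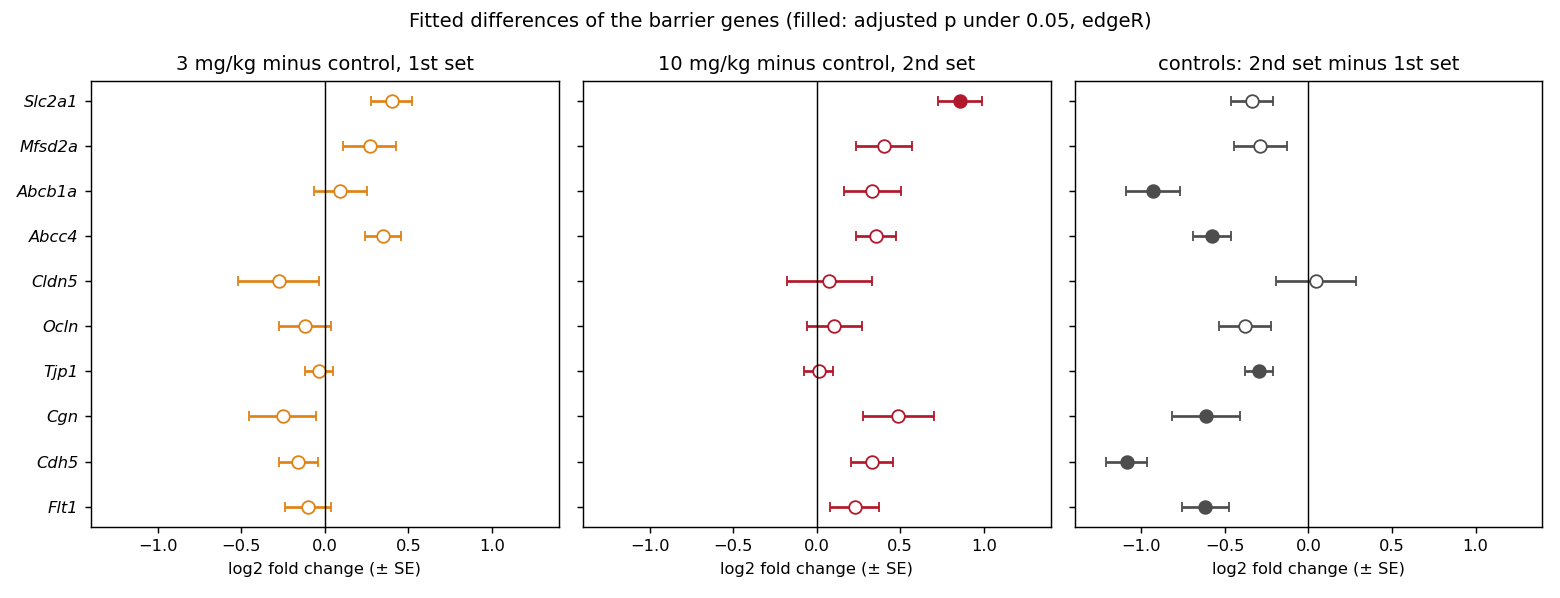
Fitted log2 fold changes with SE (bars) for the low dose minus its controls, the high dose minus its controls, and the controls of the 2nd set minus those of the 1st; filled points passed an adjusted p of 0.05. Slc2a1 at the high dose (0.86) is the filled point among both exposures, and 6 members are filled and below 0 between the control groups.

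At the low dose the 4 transporter and pump genes had fold changes above 0, as 50.9% of all genes did, and the 6 junction and receptor genes below 0. Of the other genes of these classes, 10 of 20 nutrient carriers and receptors and 3 of 7 pumps were above 0 at that dose. The median over the members was -0.07, against 0.00 over all genes. The difference between the responses was tested for each member and none passed, with 0.00573% of genes called (1 gene). Below an unadjusted p of 0.05 the high-dose response was the more positive in 3 members, where it was in 3.68% of genes: Slc2a1, Cgn (0.74, SE 0.29, adjusted p = 0.728, edgeR) and Cdh5 (0.49, SE 0.17, adjusted p = 0.719, edgeR).

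**Figure D3:**
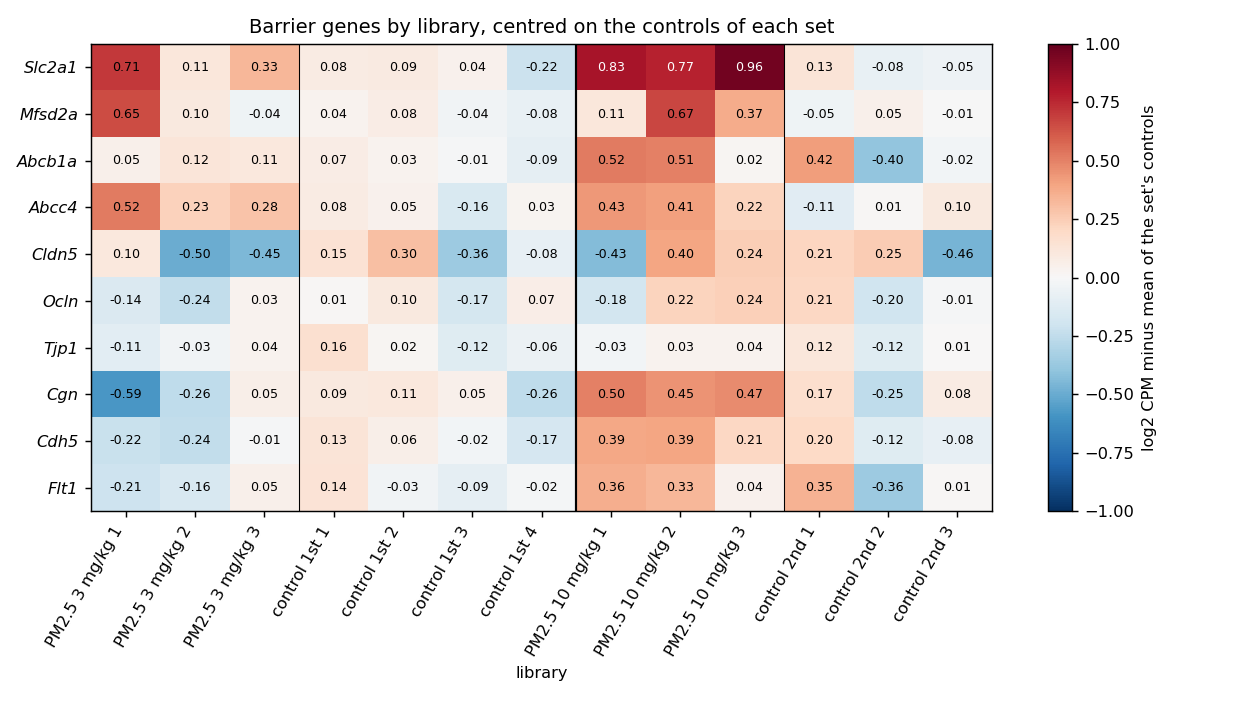
Each cell is the log2 CPM of a barrier gene in a library minus the mean of the controls of its set; columns are libraries and rows genes. Slc2a1 is at 0.11 to 0.96 in the 6 exposed libraries and at -0.22 to 0.13 in the controls of both sets. The high values of Mfsd2a lie in low-dose replicate 1 and high-dose replicates 2 and 3.

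Levels were next set against endothelial content. The summed level of 20 other endothelial genes was 401 to 458 CPM at the high dose and 378 to 466 CPM in controls. At the low dose it was 451 to 489 CPM, against 485 to 524 CPM in controls. The genes of this list did not move as 1. At the high dose 12 were above 0 and 8 below (log2 -0.46 to 0.60), and at the low dose 4 and 16 (-0.45 to 0.43). Relative to the mean log2 CPM of that list, Slc2a1 was higher by 0.81 at the high dose and 0.45 at the low dose, so its difference was about as large as without this adjustment. At the high dose Mfsd2a (0.34), Cgn (0.43) and Cdh5 (0.29) also lay above all controls on this scale, as 3.74% of all genes tested did, each with an exact permutation p of 0.1 (two-sided), the smallest that 3 against 3 libraries allow. After 3 mg/kg Slc2a1, Abcb1a (0.16) and Abcc4 (0.41) did so, where 4.89% of all genes did, each with an exact permutation p of 0.0286, the smallest that 3 against 4 allow. These p-values, from 30 comparisons of 10 members, were not adjusted. They follow from the full separation by which these members were named and are no separate support. Abcc4, above all controls by CPM at the high dose, overlapped them on this scale (0.31, exact permutation p = 0.3). Cldn5 (0.03 and -0.22), Ocln (0.05 and -0.05) and Tjp1 (-0.03 and 0.03) overlapped their controls relative to endothelial genes at the high and the low dose.

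Markers of other cell types were compared in the same libraries. Of 8 leukocyte genes tested 3 rose at the high dose (Ptprc, S100a9 and Cd163), where 0.521% of all genes were called higher. The 11 listed summed to 36.4 to 42.9 CPM at the high dose and 16.7 to 24.1 CPM in controls. Cd3e of T cells and Ly6g of neutrophils were under 0.1 CPM on average in both groups. S100a8 and S100a9 averaged 3.34 and 2.81 CPM at the high dose, against 0.769 and 0.45 CPM in controls. Which leukocytes held these transcripts was not tested. The 5 red cell genes summed to 114, 208 and 302 CPM in high-dose replicates 1, 2 and 3 and to 97.2 to 119 CPM in controls, with 0 of 5 called. At the low dose the leukocyte genes summed to 31.6 to 44.9 CPM against 31.4 to 37.1 CPM in controls, and the red cell genes to 86.4 to 117 CPM against 40.1 to 109 CPM in controls, with none called. The 11 pericyte genes summed to 263 to 310 CPM at the high dose and 229 to 318 CPM in controls; all 11 had high-dose fold changes above 0 (median log2 0.20), 2 were higher at an unadjusted p under 0.05, and 0 were called. The 8 genes of astrocyte endfeet summed to 1668 to 1752 CPM at the high dose and 1518 to 1887 CPM in controls. Of these 7 were above 0, and at an unadjusted p under 0.05 3 were higher and 1 lower, with 0 called. Over all genes tested 47.2% were above 0 at the high dose, and 5.75% were higher and 3.89% lower at that unadjusted p. Gjb6, a gap junction connexin, stood at log2 0.70 (SE 0.15, adjusted p = 0.0597, edgeR) and Kcnj10, a potassium channel, at -0.47 (SE 0.11, adjusted p = 0.0791, edgeR).

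The 9 bulb neuron genes summed to 4627, 4653 and 4285 CPM at the high dose, all below the 4843 to 5617 CPM of the controls, and to 4527 to 4714 CPM at the low dose, all above the 4112 to 4512 CPM of the controls. None of the 9 was called at either dose, and 2 were lower at the high dose at an unadjusted p under 0.05, where 3.89% of all genes were. The part of all these cell types in the values of the members, Slc2a1 included, was not tested.

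Among other genes of the same pathways, none of 116 tested passed at the high dose with edgeR's quasi-likelihood test, and 11 were higher and 3 lower at an unadjusted p under 0.05, as 5.75% and 3.89% of all genes were; the DESeq2 Wald test called 3. Their median log2 fold change was 0.07. Of 14 other tight junction genes 9 were above 0 and 5 below, with Esam, an endothelial adhesion molecule, at 0.28 and Lsr, of tricellular junctions, at 0.42 (adjusted p = 0.669 and 0.71, edgeR). Of 10 other adherens junction genes 4 were above 0, with Ctnna1, alpha-catenin, at 0.25 and Cdh2, N-cadherin, at 0.05. Of 7 other pumps 5 were above 0, with Abcb1b at 0.42 and Abcc1 at -0.19.

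Of 20 other nutrient carriers and receptors 11 were above 0. Slco2b1, an organic anion transporter, stood at 26.9 ± 1.5 CPM at the high dose and 19.8 ± 1.42 CPM in controls (SD, n = 3 each; log2 0.44, SE 0.11, adjusted p = 0.0872, edgeR), and Tfrc, the transferrin receptor, at -0.47 (adjusted p = 0.318). Of 15 other VEGF and angiopoietin genes 6 were above 0 and 9 below. Apln, the peptide apelin, stood at 17.4 ± 3.14 CPM at the high dose and 25.1 ± 1.23 CPM in controls (log2 -0.53, SE 0.13, adjusted p = 0.1, edgeR), and Tek, the angiopoietin receptor, at -0.46 (adjusted p = 0.282). Of 19 genes of the Wnt programme that maintains the barrier 11 were above 0, with Ppard at 0.26 and Fzd4, the receptor of norrin, at 0.54.

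Of 12 proteases and inhibitors that act on junctions and matrix 10 were above 0 (median 0.26). Timp1, an inhibitor of metalloproteinases, stood at 1.72 ± 0.762 CPM at the high dose and 0.247 ± 0.223 CPM in controls (SD, n = 3 each; log2 2.71, SE 0.65, adjusted p = 0.088, edgeR), and Plat, tissue plasminogen activator, at 0.36 (SE 0.10, adjusted p = 0.171). Of 8 transcytosis genes 5 and of 12 basement membrane genes 8 were above 0, with Ehd4 and Ptrf (cavin-1) at 0.22 and 0.30, and the laminin chains Lamb2 and Lamc1 at 0.32 and 0.18. After 3 mg/kg none of the 116 passed, with 3 higher and 7 lower at an unadjusted p under 0.05, where 1.31% and 1.15% of all genes were, and a median of -0.05.

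**Figure D4:**
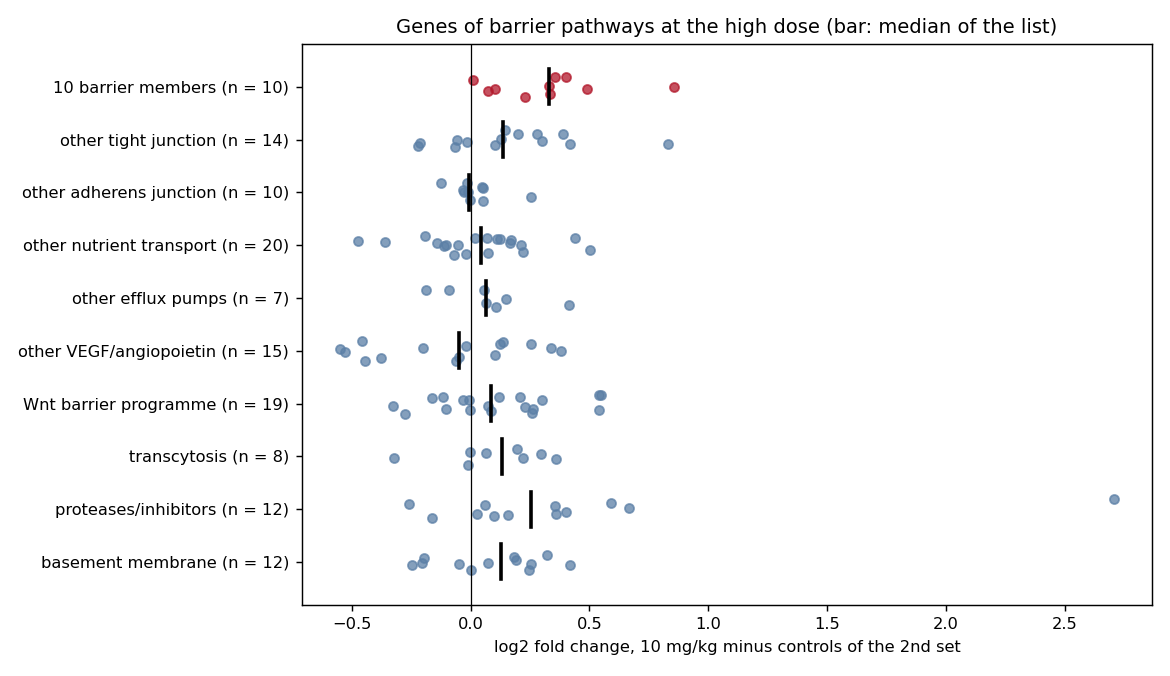
Log2 fold change at the high dose for the 10 barrier genes and for the other genes of each pathway list (points), with the median of each list (bar) and the number of genes tested in brackets. The members' median is 0.33, the medians of the other lists lie between -0.05 and 0.26, and the point at 2.71 is Timp1.

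The 2 control groups also differed in these genes. In the controls of the 2nd set 6 of 10 members were lower than in those of the 1st (8.74% of genes were called lower) and none higher, and in 7 every library lay below those of the 1st set (14.6% of genes). Cdh5 stood at 12.7, 10.1 and 10.4 CPM in the 2nd set, against 25.7, 24.5, 23.1 and 20.8 CPM in the 1st (log2 -1.09, SE 0.12, adjusted p = 0.00019, edgeR), and no library overlapped. Abcb1a had a log2 difference of -0.93 (SE 0.16, adjusted p = 0.00281), Flt1 -0.62 (SE 0.14), Cgn -0.61 (SE 0.20), Abcc4 -0.58 (SE 0.11) and Tjp1 -0.29 (SE 0.08), all called by edgeR. Cldn5, at 0.04 (SE 0.24, adjusted p = 0.908), and Slc2a1, at -0.34 (SE 0.12, adjusted p = 0.0686), were not.

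Other vessel genes were lower in the controls of the 2nd set too: 7 of 20 endothelial, 7 of 11 pericyte and 10 of 12 basement membrane genes were called lower and none higher, as were 6 of 8 genes of meningeal fibroblasts, which summed to 106 to 150 CPM in the 2nd set and 230 to 399 CPM in the 1st. Relative to the endothelial list, Cdh5 (-0.75), Abcb1a (-0.63) and Flt1 (-0.31) were still below all controls of the 1st set, as 3.93% of all genes were. Each had an exact permutation p of 0.0286 (two-sided, unadjusted), which again follows from the full separation. On this scale Slc2a1 (-0.0012), Mfsd2a (0.05) and Tjp1 (0.04) overlapped. The set and its sex-linked levels cannot be told apart, and the part of tissue makeup was not tested.

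By length-corrected level (the authors' FPKM) the members kept nearly the same order in all groups. The length implied by FPKM was well above the longest annotated transcript for Flt1 (14396 against 6895 bases) and Ocln (7560 against 4052 bases). It was not for Cldn5 (1414 against 1416 bases) or Cdh5 (3986 against 3995 bases). The order of the members under other lengths was not tested. Cldn5 was highest, at 29.1 ± 8.13 FPKM at the high dose and 27.5 ± 6.73 FPKM in its controls (SD, n = 3 each), and Cgn lowest, at 0.568 ± 0.0115 FPKM at the high dose and 0.407 ± 0.069 FPKM in its controls. Slc2a1 came next at the high dose, where it overlapped Cldn5 and its 3 libraries (21.6 to 24.7 FPKM) stood above those of Tjp1 (12.8 to 13.3 FPKM). In the controls of the 2nd set Slc2a1 (11.7 to 13.9 FPKM) and Tjp1 (11.7 to 14.2 FPKM) overlapped, as they did in those of the 1st. Mfsd2a came next in all groups, then Abcb1a and Flt1, whose libraries overlapped in 3 of the 4 groups, then Cdh5, Abcc4 and Ocln.

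The 2 deepest libraries of the 2nd set differed from the others in several members. Values were set against the mean log2 CPM of the other libraries of their group. Abcb1a stood at -0.50 in high-dose replicate 3 and -0.59 in control replicate 2, and Flt1 at -0.30 and -0.54. Cldn5 stood at 0.26 and 0.38, but these libraries (46.0 and 46.3 CPM) were near a shallower one of their group (51.2 and 45.0 CPM). Its offsets came from the low level of high-dose replicate 1 (28.7 CPM) and control replicate 3 (28.1 CPM). By longest annotated transcript, Cldn5 had the highest GC content of the members, 60.5%, against 45.2% for Abcb1a and 50.5% for Flt1. By the length implied by FPKM, which is not that of this transcript, Cldn5 was the shortest. Its implied length was 1414 bases, against 7008 bases for Abcb1a and 14396 bases for Flt1. Ocln, of the lowest GC content (42.0%, 7560 bases), stood at 0.22 in high-dose replicate 3 and -0.29 in control replicate 2. Cgn (54.7%, 6643 bases) stood at -0.0053 and -0.38 in the same libraries. Without both libraries the high-dose log2 fold changes were 0.29 for Abcb1a, 0.15 for Flt1, 0.12 for Cldn5, 0.35 for Cgn, 0.32 for Cdh5, 0.41 for Abcc4 and 0.44 for Mfsd2a, none of which passed. The part of depth and base composition in these values was not tested.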

How the data were processed

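Olfactory bulb RNA was sequenced in 13 samples (total RNA, RNeasy extraction and stranded TruSeq libraries, per the labels). Raw counts and FPKM values, both per gene and library, are the authors' deposited values; HISAT2 and mm10 are named in the submitters' processing notes without versions or settings, and no source used here gives the counter, annotation release or strand setting. Member coordinates were set beside GENCODE M21 (same build) and were identical for 8 of 10. Genes were kept with filterByExpr (by group), scaled by TMM and tested on counts in a single edgeR model (version 4.0.16, R 4.3.3; glmQLFit with robust dispersion) over 4 groups, which left 9 residual degrees of freedom, with Benjamini-Hochberg adjustment over all 17467 genes kept and a threshold of 0.05. SE was taken as |log2 fold change|/sqrt(F), an approximation. CPM values use TMM-scaled totals, and log2 CPM a prior count of 2. FPKM served for levels between genes. Implied length is the count divided by FPKM and by the library total.

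The members and gene lists were chosen with earlier results of these data known. Named genes are all members, the genes of each pathway list that passed or else the 2 of smallest p at the high dose, and the 3 genes most like each called member. Of 121 listed pathway genes other than the members 120 were found in the table (4 of them under older symbols) and 116 tested. Within groups no libraries agreed within sampling noise (lowest chi-square per gene 5.97). The fit was also tested on simulated counts. Alternatives were RLE and total-count scaling, other filters, DESeq2 1.42.0, limma 3.58.1 (voom, and trend on log2(FPKM + 1)), separate fits, a replicate block and leaving out each library.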

Additional observations from a re-analysis of the deposited data

Results flagged for a closer look

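Cgn in control replicate 4 of the 1st set, at 3.47 CPM, lay far below the other 3 controls of that set (4.33 to 4.50 CPM) relative to their spread. The 10 members were each examined for such a value in the 4 controls of the 1st set, the only group large enough, and chance gives about 1 such value in 20 groups.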

How the results depend on the processing

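The high-dose call of Slc2a1 held under 19 of 23 alternatives (log2 fold change 0.80 to 0.93); over all 23 the range was 0.75 to 0.93. It was lost, leaving 0 members called, with a separate fit of each set, with the replicate block (adjusted p = 0.0871), when 2nd-set control replicate 3 was left out, and without both deepest libraries of the 2nd set. With 1 library left out 0 to 1 members were called. For the mean of both responses 2 members (Slc2a1 and Abcc4) passed with DESeq2 and 0 with the block. No member was called at the low dose under any of 23 alternatives. Replicate numbers did not pair the libraries: 1 of 6 exposed libraries deviated most like the control of its own number, and the block called 5 genes at the high dose against 112 without it. Genes called at the high dose were 69 with at least 1 CPM in every library, 281 with DESeq2, 4 with separate fits, and 21 to 138 with 1 library left out (21 without control replicate 3 and 65 without high-dose replicate 2 of the 2nd set, 70 without control replicate 2 of the 1st). At the low dose they were 17 with DESeq2, 9 with separate fits, 2 each with limma-voom and limma trend, 1 without both deepest libraries, and 0 to 2 with 1 library left out. Pathway genes called at the high dose were 3 with DESeq2 (Apln, Slco2b1 and Timp1), 1 with limma trend (Timp1), 2 without both deepest libraries (Adamts1 and Apln) and 0 to 2 with 1 library left out (2 without high-dose replicate 3). The high-dose estimate turned to -0.079 for Ocln and -0.071 for Tjp1 without both deepest libraries, and to -0.0012 for Tjp1 with no filter. With 1 library left out it ran from -0.12 to 0.28 for Cldn5, -0.013 to 0.23 for Ocln and -0.067 to 0.084 for Tjp1, whose low-dose estimate ran from -0.081 to 0.019. Between the control groups 4 to 8 members were called with 1 library left out. The cause was not tested, beyond the fewer samples that some settings used. Cgn, at 41 to 96 counts per library, is the member whose precision depth limits most.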
